A study of Mus musculus with 19 samples.

Results

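The circadian clock genes described here are Per1, Per2, Per3, Cry1, Dbp, Tef, Nr1d1, Nr1d2, Arntl and Ciart, 10 of the 27179 genes listed in the expression table, chosen by name as core parts and direct targets of the clock. All 10 passed the filter on low values and were among the 14186 genes tested. RNA was sequenced from splenocytes, spleen cells in suspension with red cells lysed, of 19 mice of the FCG cross, named for its core genotypes. Testes form in those FCG mice that inherit a transgenic copy of Sry on chromosome 3, whichever sex chromosomes they have, since their Y chromosome lacks the gene. XY- Sry males of the strain B6.Cg-Tg(Sry)2Ei Srydl1Rlb/ArnoJ were bred with C57BL/6J females. XXF (5 mice) had XX chromosomes and ovaries, XYF (4) had XY chromosomes and ovaries, XXM (5) had XX chromosomes, the transgene and testes, and XYM (5) had XY chromosomes, the transgene and testes. Every mouse had been immunized with heat-killed Streptococcus pneumoniae (HKSP) and was killed 1 week later. There was no unimmunized group. Mice with ovaries are called females and mice with testes males. Gonads, the transgene and the stretch of chromosome 3 around it always go together, so their parts cannot be told apart. Mice were kept on a light and dark cycle. Neither their ages nor the hour at which spleens were taken is stated by the labels or methods. As far as the labels say, each library is a separate animal, not a pool.

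The labels were checked against marker genes. Xist, the RNA of the inactive X chromosome, lay between 23.9 and 41.8 RPKM (reads scaled to gene length and library size) in XXF and between 26.8 and 44.9 in XXM mice. It was at most 0.0357 RPKM in XYF and 0.0524 in XYM mice. The Y-linked gene Eif2s3y was at 51.1 RPKM or more in XYF, 89.8 or more in XYM mice and at 0 in every XX mouse. The common leukocyte gene Ptprc was at 240.3 RPKM or more in each mouse, and markers of B cells, T cells, plasma cells, myeloid cells, NK cells and erythroid cells were all present, while the 5 genes of stroma summed to at most 0.757 RPKM and none passed the filter. Library sizes were 14595054 to 17644855 reads in XXF, 11263753 to 19040738 in XYF, 12119957 to 18099717 in XXM and 15887402 to 19962022 in XYM mice. Libraries of a group stand together in both running numbers of their titles, and the 5 XXM titles carry an extra tag. What the numbers and the tag stand for is not stated, and whatever follows them cannot be told apart from the group. XYF F9 and XYM 9 stood apart from all other mice. Their neutrophil markers S100a8, S100a9, Ngp, Camp and Ltf summed to 55652 and 57614 RPKM, against 16542 or less in the others. Several differences and pairs below rest in part on these mice.

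The circadian clock is a loop of transcription and delayed repression that runs in nearly all cells, lymphocytes and macrophages included. ARNTL (also called BMAL1) and CLOCK bind E-box sequences and switch on the Per and Cry genes, whose proteins come back and repress them, and also Nr1d1, Nr1d2, Dbp, Tef and Ciart. NR1D1 and NR1D2 in turn repress Arntl through ROR elements, so that across the day Arntl RNA is high when Dbp, Nr1d1 and the Per genes are low, and Cry1 follows with a delay. DBP and TEF act through D-boxes, for example on Per genes. In the spleen the clock sets daily rhythms in leukocyte traffic and cytokine release, and glucocorticoids and temperature help to set its phase.

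The genes differed in level by about an order of magnitude. Per length, Nr1d2 was highest with a mean of 13.2 RPKM over the 19 mice. It was followed by Arntl (10.1), Cry1 (10.1), Tef (9.78), Per1 (7.4), Dbp (4.34), Ciart (2.02), Per2 (1.69), Nr1d1 (1.62) and Per3 (1.05). Of the 9 neighbouring pairs in this order, 5 lay further apart than the larger of their SDs among mice on the log2 scale, and Arntl with Cry1, Cry1 with Tef, Ciart with Per2 and Per2 with Nr1d1 did not. Precision was lowest for Ciart, with 25 to 76 reads per mouse, and Nr1d1, with 34 to 103. Arntl had 193 to 737 reads and Nr1d2 578 to 1336. Between the lowest and the highest mouse the RPKM differed 1.51-fold for Cry1, the steadiest, and 3.18-fold for Ciart, the least steady. Exons of Dbp overlap those of Sphk2 on the other strand, exons of Nr1d1 those of Thra, and exons of Tef and Arntl those of the antisense genes Gm17597 and Gm45355. The strand setting of the counting is not stated, so values of Dbp and Nr1d1 are uncertain where reads of Sphk2 (median 774 reads) or Thra (median 198) could be counted with them. Gm17597 had a median of 0 reads.

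**Figure D1:**
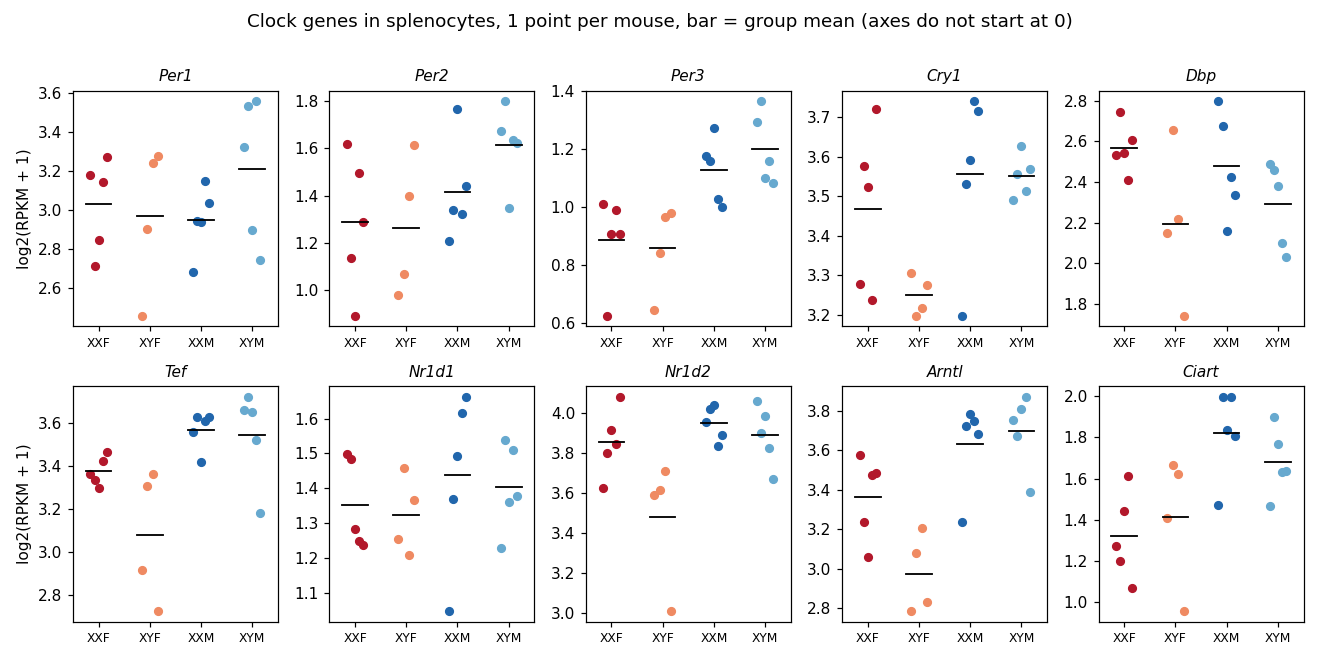
Expression of the 10 clock genes as log2(RPKM + 1) (vertical axis) in each mouse (points) of the 4 groups, with group means (bars). For Arntl every XYM point, from 3.39 up, is above every XYF point, up to 3.21.

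Upstream sequences are shown for those genes among the ones that passed the adjusted p between males and females whose promoters hold a clock motif. RefSeq on GRCm38.p6 gave promoter windows for 9 of the 10 genes. Per2 had no window and was not searched. The 250 bases before each start were searched on both strands for the E-box CACGTG, the D-box as TTA, then T or C, then GTAA, and the ROR element as TAGGTCA or TGGGTCA. The E-box stood in windows of Per1, Cry1, Tef and Ciart, the D-box in that of Per3, and the ROR element in none. Among all 32851 promoters 6.02% hold the E-box, 0.931% the D-box and 5.38% the ROR element. These shares count single windows, while a clock gene counted with a match in any of its windows, 12 in all for the 9 genes. In the bases below, which stop short of annotated exons, capitals mark E-boxes in Cry1, Tef and Ciart and D-boxes in Per3.
Cry1 (chr10:85185065-85185304, minus strand): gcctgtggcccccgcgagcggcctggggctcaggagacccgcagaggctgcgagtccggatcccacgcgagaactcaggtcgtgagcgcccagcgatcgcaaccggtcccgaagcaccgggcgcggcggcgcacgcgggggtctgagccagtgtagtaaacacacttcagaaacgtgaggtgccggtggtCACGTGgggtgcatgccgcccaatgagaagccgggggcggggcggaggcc
Tef (chr15:81811164-81811413, plus strand): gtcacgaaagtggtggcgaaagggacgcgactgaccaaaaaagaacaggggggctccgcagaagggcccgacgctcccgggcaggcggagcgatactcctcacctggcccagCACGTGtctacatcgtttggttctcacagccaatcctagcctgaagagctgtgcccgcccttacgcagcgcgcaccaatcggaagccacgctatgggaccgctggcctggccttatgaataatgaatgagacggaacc
Ciart (chr3:95882258-95882478, minus strand): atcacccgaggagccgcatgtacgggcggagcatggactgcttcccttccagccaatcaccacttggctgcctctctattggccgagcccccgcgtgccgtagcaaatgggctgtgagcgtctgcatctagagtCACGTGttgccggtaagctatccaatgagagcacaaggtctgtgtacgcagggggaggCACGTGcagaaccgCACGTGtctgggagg
Per3 (chr4:151044708-151044915, minus strand): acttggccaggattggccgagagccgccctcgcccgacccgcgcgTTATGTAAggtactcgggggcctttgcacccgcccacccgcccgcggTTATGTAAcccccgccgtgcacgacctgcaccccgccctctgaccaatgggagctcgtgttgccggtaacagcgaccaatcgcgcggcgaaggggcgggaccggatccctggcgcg
Ciart holds 3 E-boxes and Per3 2 D-boxes, while the windows of Arntl and Nr1d2 hold none of these letters. A match describes the sequence and not the binding of a factor. The Tef window shown lies before an inner start, inside an intron of the longest transcript. All windows of Arntl and Per1 lie inside these genes as annotated, so that the bases before their outermost starts were not searched. Ciart lies on autosome 3, the chromosome of the Sry transgene.

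Arntl (Entrez 11865, chr7:113178471-113314126 of GRCm38) encodes the activator of the loop. Arntl, as log2(RPKM + 1), was 3.57 in F1, 3.24 in F2, 3.06 in F3, 3.48 in F4 and 3.48 in F5 among XXF mice and 2.79 in F6, 3.08 in F7, 3.21 in F8 and 2.83 in F9 among XYF mice. In males Arntl was 3.24 in mouse 2, 3.72 in mouse 5, 3.78 in mouse 6, 3.75 in mouse 7 and 3.68 in mouse 8 with XX and 3.39 in mouse 9, 3.75 in mouse 12, 3.67 in mouse 13, 3.81 in mouse 15 and 3.87 in mouse 16 with XY chromosomes. All 5 XYM mice lay above all 4 XYF mice, XXM 2 lay far below the other XXM mice and among the females, and XXF mice overlapped both XYF and male values. XXF mice averaged 3.37 ± 0.21 (SD, n = 5) and XYF mice 2.98 ± 0.20 (SD, n = 4) on this scale. For XXM the mean was 3.64 ± 0.23 (SD, n = 5), and for XYM it was 3.70 ± 0.19 (SD, n = 5). A gene was called when its limma p, Benjamini-Hochberg adjusted over the 14186 tested genes, fell below 0.1 and it differed more than 1.5-fold on the RPKM + 1 scale. Arntl was called higher in XYM than XYF mice (log2 difference 0.73, SE 0.14, adjusted p = 0.00321, 1.65-fold on the RPKM + 1 scale). It was the 1 clock gene called there, where 15.8% of all tested genes were called. Its call held under each of the 34 alternatives run, with differences of 0.66 to 0.80 and adjusted p of 0.000945 to 0.0362. For Arntl, XYM minus XYF, the difference was 0.75 without XYF F9 and XYM 9 (adjusted p = 0.0035). Within XX mice Arntl differed by 0.27 (SE 0.13, adjusted p = 0.269) and was not called. Averaged over XX and XY mice, Arntl in males and females differed by 0.50 (SE 0.10, adjusted p = 0.00157), below the fold threshold, with each of the 10 males above the average of the female group means. The test of whether the male and female difference depends on the sex chromosomes gave, for Arntl, an adjusted p of 0.192, so a difference between XX and XY mice in this respect was not shown.

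Per3 (Entrez 18628, chr4:150997018-151044707 of GRCm38) encodes a repressor. Per3, as log2(RPKM + 1), was 1.01 in F1, 0.63 in F2, 0.91 in F3, 0.99 in F4 and 0.91 in F5 among XXF mice and 0.65 in F6, 0.84 in F7, 0.97 in F8 and 0.98 in F9 among XYF mice. In males Per3 was 1.18 in mouse 2, 1.16 in mouse 5, 1.27 in mouse 6, 1.03 in mouse 7 and 1.002 in mouse 8 with XX and 1.08 in mouse 9, 1.29 in mouse 12, 1.36 in mouse 13, 1.10 in mouse 15 and 1.16 in mouse 16 with XY chromosomes. XYM and XYF mice did not overlap, and among XX mice XXM 8 lay below XXF F1. Per3 passed the adjusted p between males and females (log2 difference 0.29, SE 0.07, adjusted p = 0.00683) and between XYM and XYF (log2 difference 0.34, SE 0.10, adjusted p = 0.0223), in both below the fold threshold. For Per3, XYM minus XYF, the difference was 0.62 on the log2(RPKM + 0.1) scale, where low genes are less compressed, and was called.

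Per1 and Per2, which respond to light and stress signals as well as to the clock, varied within groups. Per1 lay at 2.71 to 3.27 in XXF, 2.46 to 3.27 in XYF, 2.68 to 3.15 in XXM and 2.74 to 3.56 in XYM mice as log2(RPKM + 1), and all 4 groups overlapped. Its log2 difference between males and females was 0.08, adjusted p = 0.669 by limma. Per2 lay at 0.89 to 1.62, 0.98 to 1.61, 1.21 to 1.77 and 1.35 to 1.80 in the same order of groups, and differed by 0.24, adjusted p = 0.11 by limma. Cry1 (Entrez 12952, chr10:85131700-85185054 of GRCm38), which encodes a strong repressor of CLOCK and ARNTL, was 3.31 in F6, 3.20 in F7, 3.22 in F8 and 3.28 in F9 among XYF mice and 3.57 in mouse 9, 3.49 in mouse 12, 3.56 in mouse 13, 3.63 in mouse 15 and 3.51 in mouse 16 among XYM mice. These groups did not overlap, and the difference of 0.30 (SE 0.11, limma adjusted p = 0.0523) was below the fold threshold. XXF mice split into F1 and F4, at 3.28 and 3.24, and the others at 3.52 or more, and XXM 2 was at 3.20 with the other XXM mice at 3.53 or more.

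The targets of ARNTL and CLOCK were described gene by gene, and no test compared their differences with each other. Dbp (Entrez 13170, chr7:45705100-45710203 of GRCm38), which swings widely over the day in many tissues, was 2.53 in F1, 2.75 in F2, 2.54 in F3, 2.41 in F4 and 2.61 in F5 among XXF and 2.15 in F6, 2.66 in F7, 2.22 in F8 and 1.74 in F9 among XYF mice as log2(RPKM + 1). In males Dbp was 2.80 in mouse 2, 2.68 in mouse 5, 2.16 in mouse 6, 2.42 in mouse 7 and 2.34 in mouse 8 with XX and 2.03 in mouse 9, 2.49 in mouse 12, 2.46 in mouse 13, 2.38 in mouse 15 and 2.10 in mouse 16 with XY chromosomes. XYF F9 was lowest and XXM 2 highest, and all groups overlapped. Males and females differed by 0.01 (SE 0.11, limma adjusted p = 0.972) and XX and XY mice by 0.28 (SE 0.11, limma adjusted p = 0.157). For Dbp, XX minus XY, both gonadal sexes averaged, the difference fell to 0.17 without XYF F9 and XYM 9 (adjusted p = 0.457, within a range of 0.0429 to 0.666 over the alternatives). Tef (Entrez 21685, chr15:81802673-81826863 of GRCm38), which encodes a relative of DBP, averaged 3.38 ± 0.07 (SD, n = 5) among XXF mice, whereas XYF mice had a mean of 3.08 ± 0.31 (SD, n = 4). XXM mice stood at 3.57 ± 0.09 (SD, n = 5), close to the XYM mean of 3.55 ± 0.22 (SD, n = 5). Its male and female difference was 0.33 (SE 0.09, limma adjusted p = 0.011), with 9 of 10 males above the average of the female group means.

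Ciart (Entrez 229599, chr3:95878500-95882257 of GRCm38) encodes a further repressor of the loop. Ciart, as log2(RPKM + 1), was 1.27 in F1, 1.201 in F2, 1.44 in F3, 1.61 in F4 and 1.07 in F5 among XXF mice and 1.41 in F6, 1.66 in F7, 1.62 in F8 and 0.96 in F9 among XYF mice. In males Ciart was 1.47 in mouse 2, 1.99 in mouse 5, 1.84 in mouse 6, 1.997 in mouse 7 and 1.81 in mouse 8 with XX and 1.64 in mouse 9, 1.46 in mouse 12, 1.90 in mouse 13, 1.77 in mouse 15 and 1.63 in mouse 16 with XY chromosomes. Of the XXM mice 4 lay above every XXF mouse and XXM 2, at 1.47, among them. The XXM and XXF means differed by 0.50 (SE 0.14, limma adjusted p = 0.0461), below the fold threshold. For Ciart, XXM minus XXF, the difference was 0.73 on the log2(RPKM + 0.1) scale, 0.78 by limma-voom on the recovered reads and 0.59 without XXM 2, and it was called in each of these. Over all 34 alternatives it was called in 7, with adjusted p from 0.00316 to 0.117. For Nr1d1 (Entrez 217166, chr11:98767932-98775377 of GRCm38), which encodes a repressor of Arntl, values spanned 1.24 to 1.497 in XXF, 1.21 to 1.46 in XYF, 1.05 to 1.66 in XXM and 1.23 to 1.54 in XYM mice, and males and females differed by 0.08, adjusted p = 0.451 by limma. Nr1d2 (Entrez 353187, chr14:18204056-18239106 of GRCm38), its relative, was 3.59 in F6, 3.61 in F7, 3.71 in F8 and 3.01 in F9 among XYF mice and spanned 3.62 to 4.08 in XXF, 3.83 to 4.04 in XXM and 3.67 to 4.06 in XYM mice. XYF F9 was far below all others. Between males and females Nr1d2 differed by 0.25 (SE 0.09, limma adjusted p = 0.0412), and all 10 males lay above the average of the female group means. For Nr1d2, males minus females, both sex chromosome complements averaged, the difference was 0.20 without XYF F9 and XYM 9 (adjusted p = 0.0293), within a range of 0.0235 to 0.117 for the adjusted p over the alternatives.

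Between males and females, averaged over the sex chromosomes, all 10 clock genes had a difference above 0, with a median of 0.25 against 0.02 over all tested genes. The share of all tested genes above 0 was not counted, here or below. Values of the clock genes mostly ran together over the mice, as given below for pairs, so they are not 10 separate observations. Arntl, Per3, Tef, Ciart, Nr1d2 and Cry1 passed the adjusted p of limma, all of them higher in males, where 20.5% of all tested genes did so in that direction. None passed the fold threshold as well, where 7.32% of all tested genes were called. By limma 7 of the 10 were at an unadjusted p under 0.05, and limma-voom called 1, Ciart. Shares of all tested genes at an unadjusted p under 0.05 are not given, here or below. Counts at that p are thus not read as a result about the genes listed. Per2, Per1, Nr1d1 and Dbp did not pass the adjusted p. Per1 and Dbp, with differences near 0, changed sign in some alternatives, Per1 between -0.0045 and 0.19 and Dbp between -0.09 and 0.08.

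Within XY mice all 10 differences between males and females were above 0, with a median of 0.32 (0.02 over all tested genes), and 5 genes (Per3, Cry1, Tef, Nr1d2 and Arntl) passed the adjusted p of limma in this direction, against 23.1% of all tested genes. XYM mice lay wholly above XYF mice for 3 genes, Arntl, Per3 and Cry1, as they did for 9.93% of tested genes. Within XX mice 8 of 10 differences were above 0, with a median of 0.11 (-0.01 over all tested genes), and 1 gene, Ciart, passed the adjusted p, against 4.7% of tested genes. There limma called no clock gene, with 2 at an unadjusted p under 0.05 and 1 called by limma-voom, against 4.22% of tested genes. XXM mice lay wholly above XXF mice for 0 clock genes and 4.56% of tested genes.

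**Figure D2:**
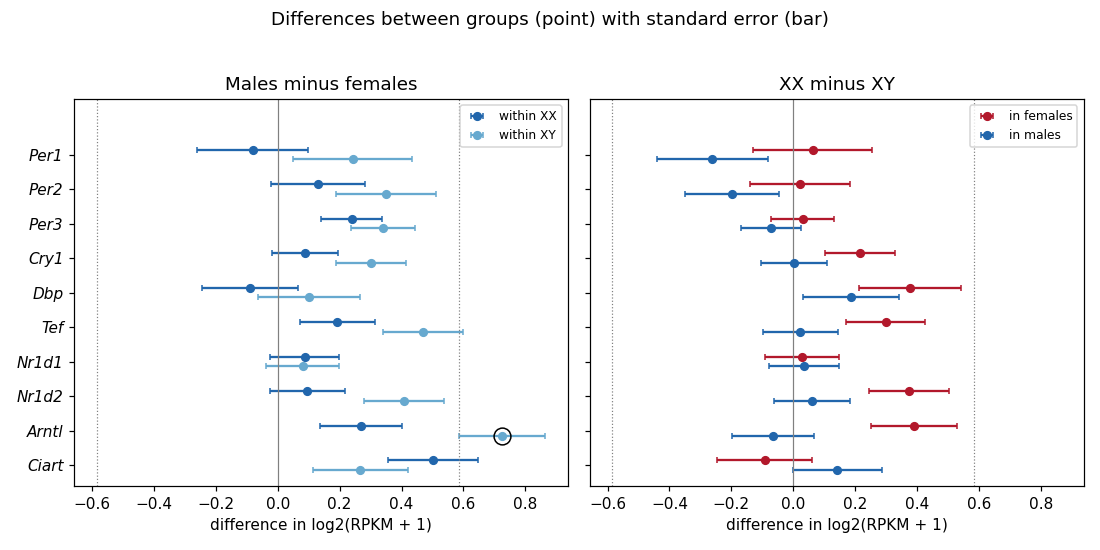
Differences in log2(RPKM + 1) (horizontal axis) of the 10 clock genes between males and females (left) and between XX and XY mice (right), as limma estimates (points) with standard errors (bars), with dotted lines at the 1.5-fold threshold and a ring around the 1 called difference. Arntl in XYM minus XYF, at 0.73, is the 1 point past the threshold.

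The sex chromosome complement gave no call among the clock genes. By limma 0 of 10 were called between XXF and XYF mice (4 at an unadjusted p under 0.05, 0 by limma-voom), where 1.38% of tested genes were called. Between XXM and XYM mice the count was 0 (0 at an unadjusted p under 0.05, 0 by limma-voom) against 2.96%, and over both gonadal sexes 0 (2 at an unadjusted p under 0.05, 0 by limma-voom) against 1.72%. In females the lowest adjusted p were 0.16 for Nr1d2 (0.37) and 0.17 for Arntl (0.39), both higher in XXF than XYF mice. For Nr1d2, XXF minus XYF, the difference was 0.22 without XYF F9 (adjusted p = 0.527), the lowest of its alternatives, which reached 0.45, with adjusted p from 0.088 to 0.527. It thus rests in part on that mouse. For Arntl, XXF minus XYF, the difference without XYF F9 was 0.34 (adjusted p = 0.485, range 0.0992 to 0.485). The median difference of the clock genes was 0.14 in females and 0.01 in males, against 0.06 and 0.01 over all tested genes. The test of whether the XX and XY difference itself depends on the gonads called 0 clock genes (1, Arntl, at an unadjusted p under 0.05, 0 by limma-voom) and 0.0846% of tested genes. For Arntl that estimate was 0.46 (SE 0.19, limma adjusted p = 0.192).

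A clock index was formed for each mouse from log2 values, each gene centred on the 19 mice. The index is the mean of Per1, Per2, Per3, Dbp, Tef, Nr1d1, Nr1d2 and Ciart minus the value of Arntl. It is a description, with no test. The index was -0.12 in F1, 0.08 in F2, 0.27 in F3, -0.02 in F4 and -0.05 in F5 among XXF mice and 0.33 in F6, 0.30 in F7, 0.20 in F8 and 0.32 in F9 among XYF mice. It was 0.19 in mouse 2, -0.14 in mouse 5, -0.23 in mouse 6, -0.19 in mouse 7 and -0.14 in mouse 8 among XXM mice and -0.03 in mouse 9, -0.17 in mouse 12, 0.04 in mouse 13, -0.31 in mouse 15 and -0.32 in mouse 16 among XYM mice. All 4 XYF mice were above 0, 4 of 5 XXM mice and 4 of 5 XYM mice were below 0, and XXF mice lay on both sides. Group means were 0.03 ± 0.15 (SD, n = 5) for XXF and 0.29 ± 0.06 (SD, n = 4) for XYF. XXM mice averaged -0.10 ± 0.17 (SD, n = 5), and XYM mice averaged -0.16 ± 0.16 (SD, n = 5). The mean of the 8 genes did not fall where Arntl was high, so the index is not read as a phase of the clock. It was -0.18 in XYF mice, where centred Arntl was -0.47, and 0.10 in XYM mice, where centred Arntl was 0.26. XYF F6 and XYF F9 were the lowest mice in both.

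**Figure D3:**
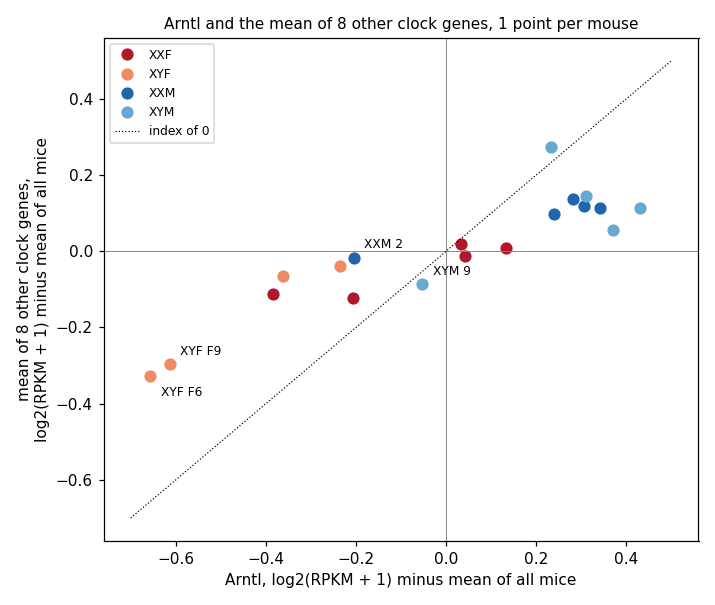
Each point is a mouse, with centred log2 Arntl on the horizontal axis and the mean of the centred log2 values of Per1, Per2, Per3, Dbp, Tef, Nr1d1, Nr1d2 and Ciart on the vertical axis, coloured by group, with a dotted line where the index is 0. XYF F6 and F9 are lowest in both and most males lie above 0 in both.

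Over the 19 mice, 39 of the 45 pairs of clock genes had a Pearson r above 0 and 6 below 0, and with median ratio rescaling of the libraries 33 were above and 12 below. After Benjamini-Hochberg adjustment over the 45 pairs, 13 pairs passed 0.05 by Pearson r, all above 0, and 6 by Spearman rho, each of them among the 13. The count by Pearson r was 5 with median ratio rescaling, 5 without XYF F6, 5 without XYM 13, 6 without XXM 5 and 8 without both XYF F9 and XYM 9. Arntl and Tef had Pearson r = 0.83 (permutation p = 4e-05, adjusted p = 0.0018) and Spearman rho = 0.76 (permutation p = 0.00018, adjusted p = 0.0081), with r = 0.68 without the 2 mice farthest from the Tef median. Tef and Nr1d2 had Pearson r = 0.83 (permutation p = 8e-05, adjusted p = 0.0018) and Spearman rho = 0.69 (permutation p = 0.00135, adjusted p = 0.015), with r = 0.61 without the 2 mice farthest from the Tef median. These p-values come from 100000 permutations. Per2 and Per3 had Pearson r = 0.74 (permutation p = 0.00023, adjusted p = 0.00345) and Spearman rho = 0.73 (permutation p = 0.00046, adjusted p = 0.0093), with r = 0.69 without the 2 mice farthest from the Per2 median. Arntl and its repressor Nr1d1, whose RNAs peak at opposite times of day, did not have an r below 0. Arntl with Nr1d1 had Pearson r = 0.42 (permutation p = 0.0737, adjusted p = 0.151) and Spearman rho = 0.39 (permutation p = 0.105, adjusted p = 0.225), with r = 0.38 without the 2 mice farthest from the Nr1d1 median. Arntl with Dbp had Pearson r = 0.15 (permutation p = 0.539, adjusted p = 0.692) and Spearman rho = -0.07 (permutation p = 0.784, adjusted p = 0.83), with r = -0.19 without the 2 mice farthest from the Dbp median. The lowest r was that of Per2 and Dbp, which had Pearson r = -0.44 (permutation p = 0.0613, adjusted p = 0.131) and Spearman rho = -0.48 (permutation p = 0.0376, adjusted p = 0.113), with r = -0.61 without the 2 mice farthest from the Per2 median and r = -0.54 with median ratio rescaling. The pair of clock targets Dbp and Nr1d2 had Pearson r = 0.59 (permutation p = 0.00821, adjusted p = 0.0392) and Spearman rho = 0.39 (permutation p = 0.105, adjusted p = 0.225), and r fell to 0.18 without XYF F9 and XYM 9, the 2 mice farthest from the Dbp median, so that it rests on those mice. With values centred on the group means and permuted within groups, 0 of 45 pairs passed. The lowest adjusted p was then 0.0824, shared by 5 pairs, among them Dbp with Tef (centred r = 0.68) and Per2 with Per3 (0.65). Uncentred, Dbp with Tef had Pearson r = 0.57 (permutation p = 0.012, adjusted p = 0.0415) and Spearman rho = 0.26 (permutation p = 0.28, adjusted p = 0.435), and r fell to 0.20 without XYF F9 and XYM 9, so that this pair too rests on those mice. The pooled relations thus did not pass within groups.

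**Figure D4:**
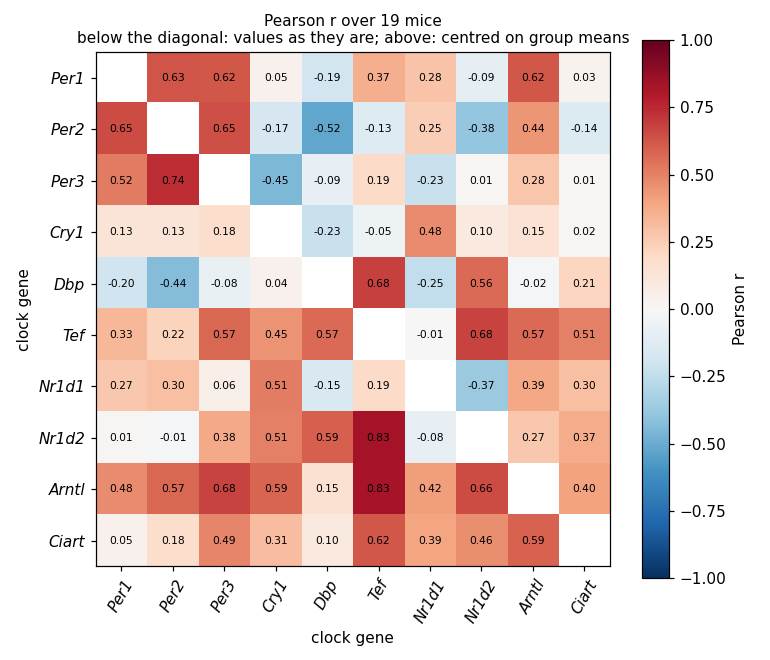
Pearson r over the 19 mice for each pair of clock genes, from the values as they are below the diagonal and from values centred on group means above it, on a colour scale from -1 to 1. Arntl and Tef have 0.83 below and 0.57 above the diagonal, and no pair with Arntl is below 0 in the lower part.

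Other genes of the clock loop were described from a list of 8, of which 6 were tested. Npas2 and Hlf did not pass the filter. Of the 6, 4 passed the adjusted p of limma as higher in males than females (20.5% of all tested genes did) and 1 was called (7.32% of all tested genes were). In XYM minus XYF 2 were called, against 15.8% of tested genes, and in XXM minus XXF 1, against 4.22%. Bhlhe41, an E-box repressor, was called between males and females (0.77, adjusted p = 0.00307) and between XYM and XYF mice (0.89, adjusted p = 0.0134). Its relative Bhlhe40 was called between XXM and XXF mice (0.61, adjusted p = 0.0104), and fell just below the fold threshold without XXF F3, XXF F4, XXM 5 or XXM 6 (log2 differences of 0.57 to 0.58, adjusted p from 0.03 to 0.0351). Clock, the partner of ARNTL, was called between XYM and XYF mice (0.60, adjusted p = 0.0119), and fell below the fold threshold without XYF F9, XYM 12, XYM 13 or XYM 16 (log2 differences of 0.49 to 0.57, adjusted p from 0.0284 to 0.0363). Arntl and Clock, which encode the activator, were thus both higher in XYM than XYF mice. No gene of this list was called by limma between XX and XY mice in either gonadal sex or over both, nor by limma-voom, with 0, 0 and 1 at an unadjusted p under 0.05 in females, in males and over both.

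Genes for enzymes that modify clock proteins, kinases and ubiquitin ligases that time the decay of PER and CRY, gave no call by limma or limma-voom in any comparison, with 3 at an unadjusted p under 0.05 between males and females and 1 between XX and XY mice. Of 7, Fbxl21 did not pass the filter. The largest differences between males and females were those of Gsk3b (0.20, adjusted p = 0.0647 by limma) and Csnk1d (0.17, adjusted p = 0.0247 by limma), and between XX and XY mice those of Csnk1e (0.16, adjusted p = 0.367 by limma) and Btrc (-0.16, adjusted p = 0.48 by limma). In XYM minus XYF 3 of the 6 tested passed the adjusted p as higher in males, below the fold threshold. XYM mice lay wholly above XYF mice for these 3, as they did for 9.93% of all tested genes. The 3 genes were Gsk3b (0.43, adjusted p = 0.0141), Fbxw11 (0.27, adjusted p = 0.0251) and Csnk1d (0.25, adjusted p = 0.0279), and 23.1% of all tested genes passed in that direction. In XXM minus XXF the same genes were at -0.02, adjusted p = 0.942, -0.02, adjusted p = 0.937 and 0.10, adjusted p = 0.522, and in the test of whether the difference depends on the sex chromosomes at adjusted p of 0.15, 0.176 and 0.417. Among 7 clock outputs, of which Lonrf3 did not pass the filter, Tspan4, a membrane tetraspanin, was called lower in males (-0.77, adjusted p = 0.00346 by limma) and lower in XYM than XYF mice (-1.01, adjusted p = 0.00822 by limma), where 7.32% and 15.8% of all tested genes were called. In XYM minus XYF Coq10b also passed the adjusted p as lower (-0.37, adjusted p = 0.0504 by limma), and limma-voom called 2 genes of this list. Wee1 passed the adjusted p as lower in XX than XY mice (-0.46, adjusted p = 0.0781 by limma, 0.00962 to 0.379 over the alternatives), below the fold threshold. The direction of Tspan4 was opposite to that of Arntl and of the other called loop genes.

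Lists of signals that can set the clock were given beside these values. Of 6 glucocorticoid response genes, limma called 0 between males and females, against 7.32% of all tested genes. By limma 4 of the 6 were at an unadjusted p under 0.05, and limma-voom called 0. The largest differences were Ddit4 (-0.50, adjusted p = 0.0534) and Klf9 (-0.23, adjusted p = 0.0634), by limma. The list went both ways, with 3 genes past the adjusted p as lower and 1, Fkbp5, as higher in males (0.23, adjusted p = 0.0645 by limma). Of all tested genes 20.5% passed it as higher. The share past it as lower was not counted, so the 3 lower genes are not read as a result about the list. In XYM minus XYF Klf9 was at -0.43, adjusted p = 0.0257 and Fkbp5 at 0.46, adjusted p = 0.0178, by limma. Between XX and XY mice the largest differences were Tsc22d3 (0.39, adjusted p = 0.161) and Ddit4 (0.24, adjusted p = 0.447), by limma. Of 7 temperature and heat shock genes, 3 passed the adjusted p of limma as higher in males (20.5% of all tested genes did). Rbm3 (0.28, adjusted p = 0.0098) and Hspa8 (0.44, adjusted p = 0.0239) stayed below the fold threshold. In XYM minus XYF 3 of the 7 lay above 0 and 4 below, with a median of -0.23. Hsph1, a co-chaperone, was called higher in males (0.91, adjusted p = 0.00653 by limma), where 7.32% of all tested genes were called. It was at 1.05, adjusted p = 0.0477 in XXM minus XXF and 0.78, adjusted p = 0.0749 in XYM minus XYF. In the former it was not called without XXF F1, XXF F4 or XXM 8 (log2 differences of 0.79 to 0.97, adjusted p from 0.113 to 0.121). In the latter it was not called without XYF F6, XYF F7, XYF F9, XYM 12, XYM 15 or XYM 16 (log2 differences of 0.53 to 0.82, adjusted p from 0.114 to 0.169). Hsp90aa1, a chaperone, was called higher in XXM than XXF mice (0.73, adjusted p = 0.0583 by limma) and than XYM mice (0.71, adjusted p = 0.0887 by limma). Those calls held in 26 of 34 and 19 of 34 alternatives, and without XXM 2, for example, neither was made. Of 8 immediate early genes, which answer to stress during tissue handling, none was called by limma between males and females, against 7.32% of all tested genes. By limma 1 was at an unadjusted p under 0.05, and limma-voom called 0. The largest differences were Atf3 (-0.32, adjusted p = 0.0344) and Ier2 (-0.26, adjusted p = 0.175) between males and females and Fosb (-0.36, adjusted p = 0.447) and Ier2 (0.27, adjusted p = 0.264) between XX and XY mice. In XYM minus XYF, where Arntl was called, limma called 0 of the 8, against 15.8% of all tested genes. By limma 3 of the 8 were at an unadjusted p under 0.05, and limma-voom called 1, Atf3. With 1 mouse left out, limma called 0 to 3 of them. The 3 at an unadjusted p under 0.05 passed the adjusted p as lower in XYM mice. They were Ier2 (-0.55, adjusted p = 0.0528), with no overlap of the groups, Atf3 (-0.51, adjusted p = 0.0233) and Junb (-0.50, adjusted p = 0.0793). How many of all tested genes passed it as lower, or lay wholly lower, was not counted, so the 3 are not read as a result about the list. Ier2, Atf3 and Junb were called in 10 of 34, 7 of 34 and 5 of 34 alternatives in that order. Their part in the Arntl difference was not tested.

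The RNA of cell type markers differed with the gonads too. In bulk RNA, fewer cells of a type and less RNA per cell cannot be told apart. For the counts below, the shares called among all tested genes were 7.32% between males and females, 15.8% in XYM minus XYF and 4.22% in XXM minus XXF. Of the 4 B cell markers (Ms4a1, Cd79a, Cd79b and Pax5) 2 were called higher in males than females and 3 in XYM than XYF mice (0 without XYF F9 in the former, 1 without XYF F6 or XYF F9 in the latter), and their summed RPKM was 2029 to 2316 (median 2183) in XXF, 1005 to 2064 (median 1642) in XYF, 2799 to 3497 (median 3114) in XXM and 1676 to 3006 (median 2510) in XYM mice, with Cd79b the most abundant. Of the 5 T cell markers (Cd3d, Cd3e, Cd3g, Cd4 and Cd8a) 4 were called lower in males (5 in XXM than XXF and 4 in XYM than XYF mice), with sums of 583 to 904 (median 764), 286 to 791 (median 602), 176 to 281 (median 239) and 171 to 385 (median 297) in the same order and Cd3g the most abundant. All 5 erythroid markers were called lower in males, with sums of 2665 to 5924 (median 3515), 3686 to 16248 (median 8751), 1715 to 3471 (median 2431) and 437 to 3149 (median 888), led by Hba-a1. In XYM minus XYF limma called 5 of the 5 lower (3 without XYF F6). In XXM minus XXF it called 0, with 0 at an unadjusted p under 0.05, 0 by limma-voom and a lowest adjusted p of 0.284. The test of whether that difference depends on the sex chromosomes called 0 of the 5 (1 at an unadjusted p under 0.05, 0 by limma-voom, up to 3 with 1 mouse left out), with a lowest adjusted p of 0.131. XYF F6 and F9, the mice lowest in Arntl, were also those with the lowest B cell sums, 1256 and 1005 RPKM, and the highest erythroid sums, 16248 and 13271 RPKM. No defining marker of these lists was at 0 in any mouse. Their part in the clock gene results was not tested.

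**Figure D5:**
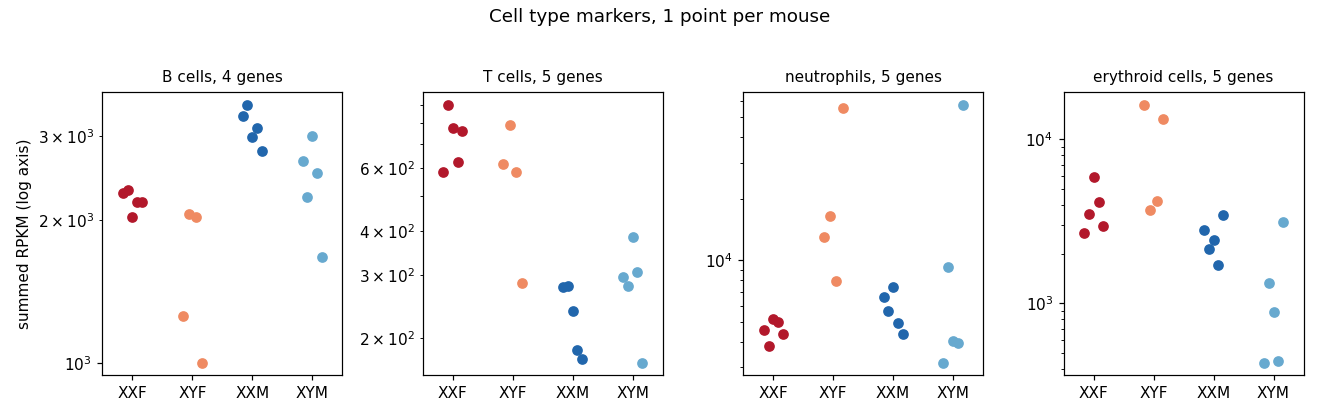
Summed RPKM (vertical axis, log scale) of 4 marker genes of B cells and 5 each of T cells, neutrophils and erythroid cells in each mouse (points) of the 4 groups. XYF F9 and XYM 9 hold the neutrophil sums of 55652 and 57614, and all XXM mice, from 2799 up, lie above all XXF mice in B cell markers.

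Markers also differed with the sex chromosomes, where no clock gene was called. Of 5 NK cell markers (Ncr1, Klrb1c, Klrk1, Gzma and Eomes), 4 were called higher in XX than XY mice, against 1.72% of all tested genes, with sums of 353 to 490.2 (median 394) RPKM in XXF, 73.5 to 221 (median 140.0) in XYF, 293 to 359 (median 329) in XXM and 53.2 to 257 (median 173) in XYM mice, led by Gzma. Of the 4 B cell markers 3 passed the adjusted p as higher in XX than XY mice. The share of all tested genes that did so was not counted, so the 3 are not read as a result about the list. Of the 4, limma called 0, against 1.72% of all tested genes (4 at an unadjusted p under 0.05, 0 by limma-voom, up to 2 called with 1 mouse left out). In XXM minus XYM, where 2.96% of all tested genes were called, Pax5 (0.90, adjusted p = 0.0602) and Hba-a1 (1.55, adjusted p = 0.094) were called higher and Cd4 (-0.69, adjusted p = 0.0842) and Cd8a (-0.77, adjusted p = 0.0621) lower by limma. These calls held in 25 of 34, 19 of 34, 22 of 34 and 26 of 34 alternatives in that order. The NK cell markers Klrb1c (0.91, adjusted p = 0.0727) and Gzma (1.40, adjusted p = 0.0645) were also called higher in XXM than XYM mice by limma. Each was called in 24 of 34 alternatives. With 1 mouse left out, limma called 0 to 4 of the 5 NK cell markers in XXM minus XYM. Of the 5 markers each of plasma cells, macrophages and monocytes, and neutrophils, none was called by limma or limma-voom between males and females (1, 2 and 0 at an unadjusted p under 0.05) or between XX and XY mice over both sexes (4, 0 and 5). In these comparisons 7.32% and 1.72% of all tested genes were called. Xbp1 (-0.32, adjusted p = 0.0457) and Sdc1 (-0.39, adjusted p = 0.0567), plasma cell markers, passed the adjusted p of limma as lower in XX than XY mice, below the fold threshold. Between males and females 1 plasma cell marker passed it as higher in males and 2 macrophage and monocyte markers as lower. Shares past it as lower were not counted over all tested genes. With single mice left out, up to 5 neutrophil markers were called in a comparison. Tnfrsf17 of the plasma cell list was called lower in XXF than XYF mice (-0.92, adjusted p = 0.06 by limma, not called without XXF F1, XXF F4, XXF F5, XYF F6 or XYF F9, with log2 differences of -0.96 to -0.73, adjusted p from 0.121 to 0.164) and lower in XYM than XYF mice (-0.82, adjusted p = 0.0139 by limma).

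Outside the 10 genes, those whose log2 values ran most like Arntl over the 19 mice were Txndc16 (r = 0.98), Malt1 (r = 0.98), Eif2ak3 (r = 0.97), Spib (r = 0.96) and Ftx (r = 0.96), out of 14176 genes. For Per1 they were Mink1 (r = 0.91), Atg2a (r = 0.90), B4galt5 (r = 0.89), Man2c1 (r = 0.89) and Plec (r = 0.89). For Dbp they were Pdcd2l (r = 0.92), Utp23 (r = 0.89), Fbxo25 (r = 0.89), Ccl5 (r = 0.89) and Prpsap2 (r = 0.88). No gene of the clock lists stood among these.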

How the data were processed

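The deposited table holds log2 values of RPKM + 1, with 0.0001 added, which the authors made from featureCounts reads per gene after Subread alignment to the mm10 genome. They used EdgeR for their own tests, which was not run here. Whole reads were recovered from the deposited values for 21314 of 21317 genes with a read (tolerance 0.05 reads), with libraries of 11263753 to 19962022 reads. Mice were grouped by the labels. limma 3.58.1 in R 4.3.3 fitted 4 group means with a trended prior to the 14186 genes with at least 0.5 RPKM in at least 4 mice, and p-values were adjusted over all of them (Benjamini-Hochberg, two-sided). Pairs used 100000 permutations. Other values came from scipy 1.17.1, pandas 2.3.3 and numpy 2.4.6 under Python 3.11.15, and plots from matplotlib 3.10.9. The 34 alternative fits changed the pseudocount, filter, scaling, model, threshold or tool (limma-voom), or left mice out. No scaling moved the median of all genes by over 0.1. From the lists, called genes were named, or, in lists with no call, the 2 with the largest differences between XX and XY mice and between males and females. Coq10b, Fbxw11, Fkbp5, Hspa8, Junb, Rbm3, Sdc1, Wee1, Xbp1 and Tnfrsf17 were named after their values were seen. The members and lists were chosen with earlier results of these data known.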

Additional observations from a re-analysis of the deposited data

Results flagged for a closer look

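In 44 groups of values (10 genes and the clock index, each in 4 groups of mice), the highest or lowest mouse was compared with the range of its group, and in 4 of them its gap to the nearest mouse, over the range, was above Dixon's 95% critical value. Chance alone does this in about 1 in 20 groups. Per3 in XXF F2 was at 0.63 as log2(RPKM + 1), with the other XXF mice at 0.91 to 1.01. Nr1d2 in XYF F9 was at 3.01, with the other XYF mice at 3.59 to 3.71. Arntl in XXM 2 was at 3.24, with the other XXM mice at 3.68 to 3.78. The clock index of XXM 2 was 0.19, with the other XXM mice at -0.23 to -0.14, and it holds the same Arntl value. The cause was not tested.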

How the results depend on the processing

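Of 2020 differences of single clock genes under alternatives, 20 newly passed the test, 0 lost a call and 0 reversed, and 59 changed sign with no call. The clock genes called between XXM and XXF mice, 0 in the report, were 1 with log2(RPKM + 0.1), with log2(RPKM + 0.5), with limma array weights, with no fold threshold and with limma-voom, and 0 to 1 with each of 19 mice left out in turn (1 without XXM 2). Between XYM and XYF mice the count of 1 became 2 with log2(RPKM + 0.1) and with limma-voom, and 5 with no fold threshold. Between males and females the count of 0 became 6 with no fold threshold and 1 with limma-voom. The 13 gene pairs past 0.05 became 0 with values centred on group means, 5 with median ratio rescaling and 5 to 16 with a mouse left out. Alternatives chosen after seeing the data left out XYF F9 and XYM 9 (8 pairs), XYF F6 and XXM 2 (6 pairs and 1 gene called between XXM and XXF), and XXF F2, XYF F9 and XXM 2 (8 pairs). The cause of these shifts was not tested. Removing the fold threshold admits smaller differences by construction.

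Depth limits Ciart and Nr1d1 most, with as few as 25 and 34 reads in a mouse. There is 1 time of collection per mouse, with no hour given, no batch label and no unimmunized group, and clock phase in the animals was not measured.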
